A study of Mus musculus with 12 samples.

Results

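Lysosomes are the acid compartments in which cells break down proteins, lipids and glycans, and autophagy is the route by which a cell wraps its own components in a membrane and delivers them there. The 30 genes described here cover both systems: 3 transcription factors of the TFEB family, 5 genes of the lysosomal membrane and its acidification, 9 lysosomal hydrolases and 13 genes of the autophagy machinery. The rule takes genes by symbol and uses no measured value, although the list was drawn up with earlier results of these data known. All 30 symbols were found among the 55487 genes of the table. The count filter kept 29 of the 30 members and 17890 of all genes. Atg9b, which codes for a membrane protein that supplies lipid to growing autophagosomes, did not pass the filter, with 4 to 12 estimated counts per library.

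RNA of whole kidney from males of an X-linked Alport syndrome model was compared between 6 libraries from a diet with 500 ppm fisetin, a flavonol found in fruit, and 6 libraries from a control diet. The mice were on the B6 background and 30 weeks old, and carried a Col4a5 genotype that the labels give as HET, in both diets alike. The design text, however, describes male mice with an X-linked disease, and males have a single X chromosome. Col4a5 codes for a type IV collagen chain of the glomerular basement membrane. Batch, of which the labels give 2, was balanced, with 3 libraries of each diet in each (numbers 1 to 3 in batch 1 and 4 to 6 in batch 2). No healthy kidney entered any comparison, so every value sets diseased kidneys against diseased kidneys. Libraries are called by diet and a number that pairs nothing across diets. Whether every library is a separate animal is not stated by the labels, so the p-values below cover the spread between these 12 libraries, part of which may be technical.

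Total counts were 16310214 to 24451821 in the fisetin libraries and 18638748 to 22396857 in the control libraries. Markers of proximal tubule, thick ascending limb, podocytes and endothelium were counted in all 12 libraries, as the kidney label states. The summed level of 10 proximal tubule markers was 6235, 8987 and 15740 CPM (counts scaled to library size; lowest, median and highest) with fisetin and 9323, 12790 and 16390 CPM with the control diet. For 10 macrophage markers it was 530, 1123 and 1362 CPM with fisetin and 582, 762 and 1052 CPM with the control diet. Principal cell markers of the collecting duct summed to 118, 235 and 282 CPM with fisetin and 252, 311 and 397 CPM with the control diet. Of these, 6 of 6 were lower at an unadjusted p under 0.05, where 6.34% of all genes tested were (edgeR). At an adjusted p under 0.05 there were 0. Fisetin 6 stood apart from the other fisetin libraries, with the highest proximal tubule sum (15740 CPM) and the lowest macrophage sum (530 CPM) of that diet. In whole tissue, fewer cells of a type and less RNA per cell cannot be told apart.

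The TFEB family proteins (TFEB, TFE3 and MITF) are basic helix-loop-helix factors that bind short E-box sequences in the promoters of many lysosome and autophagy genes. The kinase complex mTORC1, which sits on the lysosome when nutrients are plentiful, phosphorylates TFEB and TFE3 and holds them in the cytoplasm. When mTORC1 is less active they enter the nucleus and raise transcription of these targets. Where the proteins lie in the cell is not seen by messenger RNA sequencing, which measures transcript levels. In the kidney, proximal tubule cells take up filtered proteins in bulk and degrade them in lysosomes. The series is titled for mTOR signaling in this disease, and these genes are among those that mTORC1 bears on.

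Promoter sequences were examined because this class of factors is defined by the site it binds. RefSeq promoters on GRCm38.p6, from 250 bases before to 50 after each annotated start, were matched by symbol for 26 of the 30 members. The search on both strands was for CACGTG, for TCACGTG (which contains it) and for the palindrome TCACGTGA (which contains both). At least 1 promoter held TCACGTG in 8 of the 26 members (30.8%), against 1160 of 27025 genes with a promoter (4.29%). Those 27025 genes are not limited to genes that passed the count filter. Of the tested genes with a promoter, 793 held TCACGTG and 11420 did not, a larger share than over all genes with a promoter. CACGTG was found in 11 of the 26 (42.3%), against 8.09% of genes, and TCACGTGA in 5 (19.2%), against 1.12% of genes. A match of letters is a description of the sequence, not evidence of binding in these kidneys. The members with TCACGTG were Lamp1, Mcoln1, Atp6v0d1, Ctsa, Ctsd, Gla, Naglu and Atg7. RefSeq starts differ from those of GENCODE M21 for some members. The Atg7 promoter, at chr6:114670846-114671145, lies inside the gene as GENCODE M21 places it (chr6:114643097-114860614). Ctsl, Atg5 and Bnip3 held the 6-letter core alone.

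Printed below are the promoters of 4 genes with the site that recur in the results (Naglu, Atp6v0d1, Mcoln1 and Ctsd) and of 2 genes without it whose values stand among the most different between diets (Hexa and Gabarap). Capitals mark TCACGTG on either strand, which reads as CACGTGA where the reverse strand carries it and as TCACGTGA where both do. All are shown 5′ to 3′ on the strand of the gene, at chr11:101069844-101070143 (Naglu, plus strand), chr8:105566015-105566314 (Atp6v0d1, minus strand), chr8:3500269-3500568 (Mcoln1, plus strand), chr7:142387778-142388077 (Ctsd, minus strand), chr9:59539290-59539589 (Hexa, plus strand) and chr11:69991120-69991419 (Gabarap, plus strand).
Naglu: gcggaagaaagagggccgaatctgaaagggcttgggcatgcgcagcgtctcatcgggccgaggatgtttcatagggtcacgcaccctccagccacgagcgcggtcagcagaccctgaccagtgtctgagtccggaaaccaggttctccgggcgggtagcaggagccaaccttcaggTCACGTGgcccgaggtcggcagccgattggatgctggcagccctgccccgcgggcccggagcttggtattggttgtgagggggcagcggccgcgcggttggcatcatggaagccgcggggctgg
Atp6v0d1: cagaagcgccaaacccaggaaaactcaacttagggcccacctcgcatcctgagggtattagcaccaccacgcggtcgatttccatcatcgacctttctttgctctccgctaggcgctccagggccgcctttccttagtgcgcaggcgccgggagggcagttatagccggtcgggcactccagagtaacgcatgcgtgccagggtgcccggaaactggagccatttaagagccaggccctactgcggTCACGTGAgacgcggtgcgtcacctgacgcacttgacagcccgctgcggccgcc
Mcoln1: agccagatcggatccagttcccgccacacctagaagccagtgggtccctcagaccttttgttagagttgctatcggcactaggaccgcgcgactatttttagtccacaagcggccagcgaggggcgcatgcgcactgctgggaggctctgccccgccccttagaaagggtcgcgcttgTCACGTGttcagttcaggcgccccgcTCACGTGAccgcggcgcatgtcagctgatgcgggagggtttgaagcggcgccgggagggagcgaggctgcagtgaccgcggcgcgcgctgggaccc
Ctsd: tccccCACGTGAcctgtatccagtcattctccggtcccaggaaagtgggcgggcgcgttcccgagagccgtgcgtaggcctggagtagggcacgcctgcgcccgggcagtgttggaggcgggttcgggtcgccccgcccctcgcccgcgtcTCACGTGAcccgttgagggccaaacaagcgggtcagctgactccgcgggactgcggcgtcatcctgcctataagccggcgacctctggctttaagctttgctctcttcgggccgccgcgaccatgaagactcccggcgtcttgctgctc
Hexa: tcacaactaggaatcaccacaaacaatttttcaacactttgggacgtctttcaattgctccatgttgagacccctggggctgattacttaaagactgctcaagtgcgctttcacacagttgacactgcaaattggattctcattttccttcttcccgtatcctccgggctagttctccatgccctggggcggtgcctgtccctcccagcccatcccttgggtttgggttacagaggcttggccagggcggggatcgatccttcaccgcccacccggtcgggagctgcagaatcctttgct
Gabarap: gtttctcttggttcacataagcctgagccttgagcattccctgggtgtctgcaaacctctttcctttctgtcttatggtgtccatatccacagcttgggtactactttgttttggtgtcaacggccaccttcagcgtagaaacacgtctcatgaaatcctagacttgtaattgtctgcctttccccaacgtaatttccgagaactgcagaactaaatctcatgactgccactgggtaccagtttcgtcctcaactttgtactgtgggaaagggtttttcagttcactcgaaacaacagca
Of the 6, Mcoln1 and Ctsd carried the site at 2 places, and Atp6v0d1 carried it across the annotated start. By GENCODE M21 the Gabarap gene starts at chr11:69991143, so most of its printed window lies inside the gene.

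**Figure D1:**
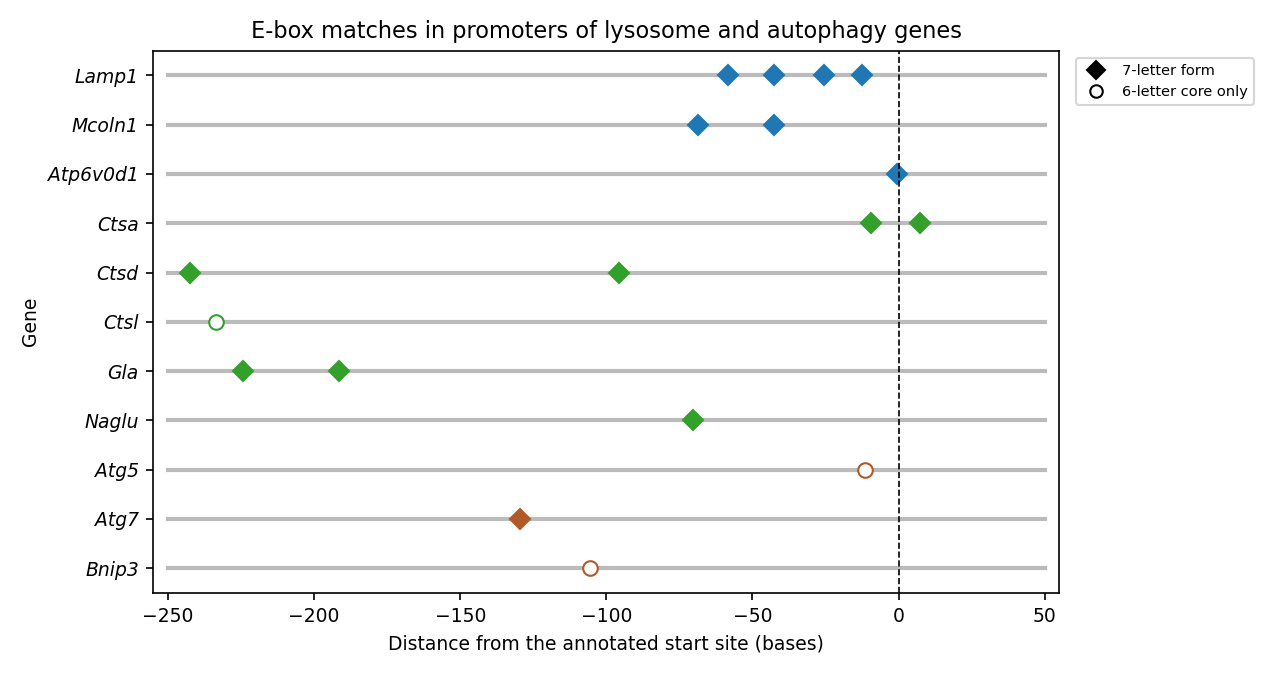
Positions of E-box matches in the promoters of the 11 members that held the 6-letter core, as distance in bases from the annotated start site (horizontal axis), 1 gene per line, coloured by role (blue lysosomal membrane and acidification, green hydrolases, brown autophagy machinery). Filled diamonds are the 7-letter form and open circles the core alone, and Lamp1 has 4 diamonds, at -58.5 to -12.5 bases.

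Members with the site and members without it both had estimates on either side of 0. Of the 8 members with TCACGTG, 2 had a positive log2 fold change of fisetin over control and 6 a negative one, with a median of -0.04. Of the 17 tested members with a promoter and no such site, 7 were positive and 10 negative, with a median of -0.02. Over all tested genes with a promoter the median was -0.01 for the 793 with the site and also -0.01 for the 11420 without it.

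The members spanned a wide range of levels, compared between genes here as FPKM, which divides by transcript length and depth. Lamp1, a heavily glycosylated protein that lines the lysosome, was the most abundant by the control mean, at 460 ± 12.03 FPKM with fisetin and 457 ± 16.7 FPKM with the control diet (SD, n = 6 each). Ctsd, the aspartic protease cathepsin D, stood at 421 ± 44.8 FPKM with fisetin and 369 ± 38.4 FPKM with the control diet. Lamp2, the partner of LAMP1 that also takes part in fusion with autophagosomes, and Ctsl, the cysteine protease cathepsin L, averaged 391 and 351 FPKM with fisetin and 394 and 371 FPKM with the control diet. The order of these 4 genes is not fixed within their spread. The 3 transcription factors were near the low end, between 9.86 FPKM (Mitf, control mean) and 15.9 FPKM (Tfeb, fisetin mean). Gla, the hydrolase missing in Fabry disease, lay below them at 2.39 ± 0.23 FPKM with fisetin and 2.55 ± 0.43 FPKM with the control diet. Atg9b was at 0.07 to 0.4 FPKM over the 12 libraries.

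**Figure D2:**
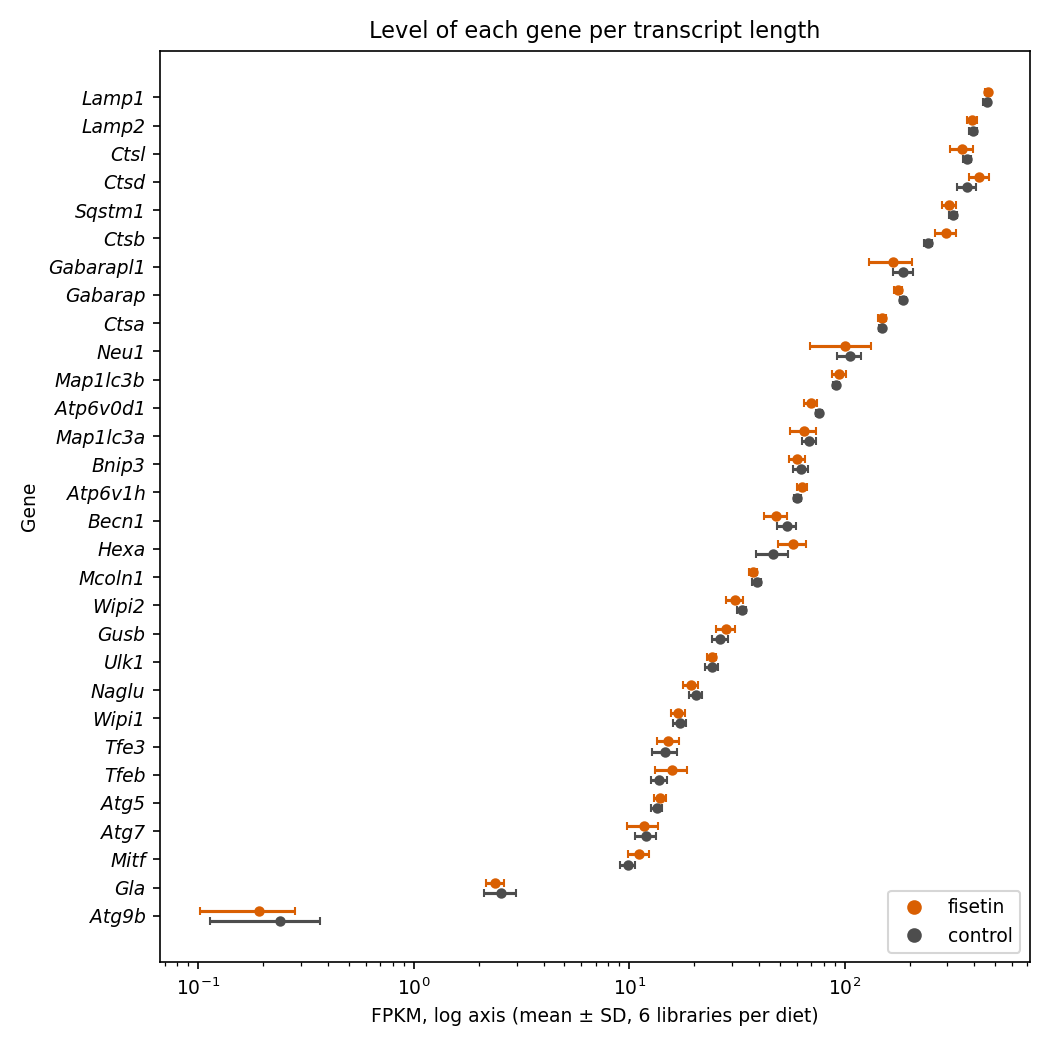
Level of each of the 30 genes in FPKM on a log axis (mean ± SD, 6 libraries per diet), ordered by the control mean, fisetin in orange above control in grey. The genes run from Lamp1 (460 FPKM with fisetin, 457 FPKM with the control diet) to Atg9b (0.19 FPKM with fisetin, 0.24 FPKM with the control diet), and the diets lie close together in each gene compared with the distance between genes.

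None of the 29 tested members passed the test between diets (edgeR quasi-likelihood test with batch as a term, Benjamini-Hochberg adjusted p under 0.05 over all genes tested), where 0 of 17890 genes passed (0%). The smallest adjusted p was 0.281 among the members (Naglu) and 0.145 among all genes. At an unadjusted p under 0.05, 5 members were counted (17.2%), against 2608 of 17890 genes (14.6%). Of these, 2 were higher with fisetin (Ctsb and Hexa), where 8.23% of all genes were, and 3 were lower (Naglu, Gabarap and Atp6v0d1), where 6.34% of all genes were. These shares lie near the background, so the count is not a result about the members. DESeq2 called 0 of the 29 and 154 of 16140 genes (0.954%), with 7 members at an unadjusted p under 0.05 (24.1%), against 2817 of the 17873 genes with a p (15.8%). In no member did all 6 libraries of a diet lie above all 6 of the other, as they did in 160 of 17890 genes (0.894%).

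Estimated differences were small throughout. They ran from 13.0% lower with fisetin (Gabarapl1) to 18.9% higher (Hexa), 11 members with a positive and 18 with a negative log2 fold change. The median log2 fold change was -0.03, against 0.000798 over all genes tested, of which 50.2% were positive. Scaled by total count in place of the TMM factors, the split was 16 positive and 13 negative, since Gla, Lamp1, Lamp2, Map1lc3b and Ulk1 changed sign. The median standard error was 0.07 for the members and 0.10 for all genes, on the log2 scale.

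**Figure D3:**
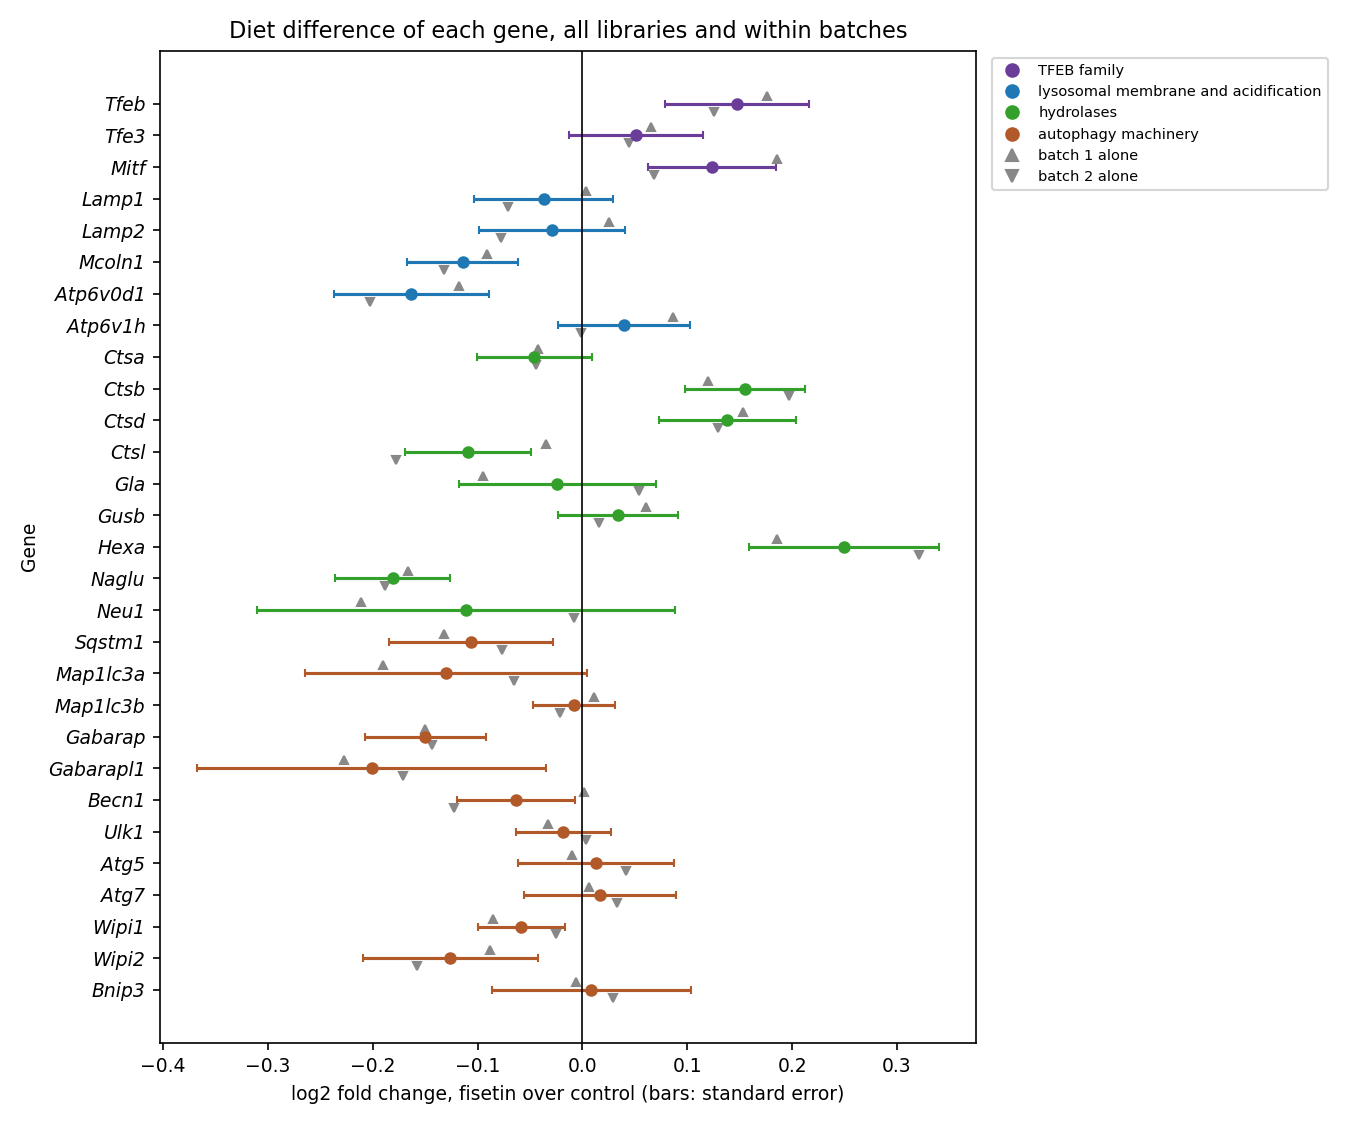
Log2 fold change of fisetin over control (horizontal axis) for the 29 tested genes, coloured by role, with bars of 1 standard error from the edgeR fit over all 12 libraries. Grey triangles give the difference within batch 1 (up) and batch 2 (down) alone, and the largest estimates are Hexa (0.25) and Gabarapl1 (-0.20).

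All 3 TFEB family genes had estimates above 0, with the TMM factors and with each other scaling tried, and none passed the edgeR test. Tfeb, the best studied regulator of lysosome biogenesis, was at 20.98, 25.1 and 28.2 CPM with fisetin (lowest, median and highest of 6) and at 20.3, 22.3 and 23.3 CPM with the control diet. Its log2 fold change was 0.15 ± 0.07 (SE), with an edgeR adjusted p of 0.345, and 5 of 6 fisetin libraries lay above the control mean. The 2 diets overlapped through fisetin 1 and fisetin 6, which fell within the control range. Tfe3, the X-linked relative of TFEB, was at 35.7, 45.4 and 46.0 CPM with fisetin and at 38.5, 42.2 and 45.9 CPM with the control diet. The other 5 fisetin libraries lay together above the control median, whereas fisetin 6 was the lowest of all 12. Its difference was 0.05 ± 0.06 (adjusted p = 0.694, edgeR). Mitf, best known from pigment cells and osteoclasts, was at 28.7, 32.3 and 36.1 CPM with fisetin and at 28.4, 29.4 and 31.4 CPM with the control diet. Fisetin 1, 2 and 5 lay above every control library, and the other 3 fell among them. The difference was 0.12 ± 0.06 (adjusted p = 0.36, edgeR).

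Among the 5 membrane and acidification genes, 1 estimate was above 0 and 4 were below, of which Lamp1 and Lamp2 changed sign when scaled by total count. Atp6v0d1, a subunit of the membrane sector of the proton pump (V-ATPase) that acidifies lysosomes, had the smallest p of the group. It was at 74.4, 89.7 and 103 CPM with fisetin and at 93.2, 99.5 and 109 CPM with the control diet, and 5 of 6 fisetin libraries lay below the control mean. The log2 fold change was -0.16 ± 0.07 (unadjusted p = 0.047, adjusted p = 0.337, edgeR). Fisetin 6, at 103 CPM, was the exception, and without fisetin 5, the lowest library, the estimate was -0.10. Mcoln1, the calcium channel of the lysosomal membrane that is also reported to feed back on TFEB, was at 49.2, 52.0 and 57.8 CPM with fisetin and at 53.0, 57.5 and 59.7 CPM with the control diet. Fisetin 3 and fisetin 6 lay within the control range and the other 4 below it, and the difference was -0.11 ± 0.05 (adjusted p = 0.346, edgeR). Its estimated counts were not whole numbers in any of the 12 libraries, and how they were made is not given in the sources used here. Lamp1 (-0.04), Lamp2 (-0.03) and Atp6v1h, a subunit of the cytosolic sector of the same pump (0.04), differed by less than their standard errors of 0.06 to 0.07.

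The 9 hydrolases did not move as a block, with 4 estimates above 0 and 5 below (Gla changed sign when scaled by total count), and the members with the smallest p pointed both ways. Naglu, which removes N-acetylglucosamine from heparan sulfate and is missing in Sanfilippo syndrome type B, had the smallest p of all members. It lies on the plus strand of chromosome 11 (chr11:101070012-101077672, GRCm38). Its values were 34.5, 37.6 and 41.4 CPM with fisetin and 39.5, 42.4 and 46.4 CPM with the control diet. All 6 fisetin libraries lay below the control mean, and fisetin 4 alone reached above the 2 lowest control libraries. The log2 fold change was -0.18 ± 0.05 (unadjusted p = 0.00617, adjusted p = 0.281, edgeR), an estimate of 11.8% lower. Fitted with limma on log2(TPM + 1) it was -0.04 (unadjusted p = 0.762). On that scale the median of all genes was 0.05, against 0.0007977 in the edgeR fit.

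Hexa, the alpha subunit of the enzyme that trims the ganglioside GM2 and is lost in Tay-Sachs disease, had the largest positive estimate of all members. It was at 80.6, 96.1 and 108 CPM with fisetin and at 68.4, 78.2 and 98.6 CPM with the control diet. The 6 fisetin libraries lay above the control mean, but control 1, at 98.6 CPM, was higher than 3 of them. The difference was 0.25 ± 0.09 (unadjusted p = 0.0169, adjusted p = 0.3, edgeR), and without control 1 it was 0.31.

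Ctsb, the cysteine protease cathepsin B, was at 620, 705 and 721 CPM with fisetin and at 589, 615 and 645 CPM with the control diet. All 6 fisetin libraries lay above the control mean, and the groups met at fisetin 3 and fisetin 6, which were no higher than control 1. The log2 fold change was 0.16 ± 0.06 (unadjusted p = 0.0193, adjusted p = 0.303, edgeR). Ctsd was at 679, 758 and 789 CPM with fisetin and at 639, 657 and 752 CPM with the control diet, where control 1 and control 5 reached into the fisetin range. It was estimated at 0.14 ± 0.07 (adjusted p = 0.349, edgeR) and Ctsl at -0.11 ± 0.06 (adjusted p = 0.393, edgeR). Both Ctsb (with Fdft1) and Hexa (with Tmem202) share exon bases with a gene on the other strand. Whether counting used strand is not given in the sources used here, and 12 of the 30 members have such a neighbour.

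Ctsa, the protective protein that keeps NEU1 and beta-galactosidase stable, differed by -0.05, Gla by -0.02, and Gusb, the beta-glucuronidase often used as a housekeeping gene, by 0.03, none by more than its standard error. Neu1, the lysosomal sialidase, differed by -0.11 ± 0.20 (adjusted p = 0.793, edgeR), with the largest standard error of all members. Its values were 158, 213 and 388 CPM with fisetin and 198, 260 and 289 CPM with the control diet. Fisetin 6 alone set the upper end, 2.46 times the lowest library, fisetin 5. The estimate was -0.32 without fisetin 6 and -0.01 without fisetin 5.

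Of the 12 autophagy genes tested, 3 estimates were above 0 and 9 below, with a group median of -0.06, and Map1lc3b and Ulk1 changed sign when scaled by total count. The ATG8 family are small ubiquitin-like proteins that are coupled to lipid on the autophagosome membrane. Its 4 genes among the members all had negative estimates, that of Map1lc3b close to 0. The Map1lc3b estimate was positive in 7 of 25 alternatives, total count scaling among them. Gabarapl2, of the same family, was counted in a wider list (-0.10 ± 0.07). Gabarap was at 158, 174 and 196 CPM with fisetin and at 185, 194 and 206 CPM with the control diet. Of the 6 fisetin libraries, 5 lay below every control library, and fisetin 6 sat among the controls. The log2 fold change was -0.15 ± 0.06 (unadjusted p = 0.0226, adjusted p = 0.304, edgeR), and within batch 1 (-0.15) and batch 2 (-0.14) it was alike. Gabarapl1 had the most negative estimate of all members, -0.20, but also a standard error of 0.17 (adjusted p = 0.545, edgeR), and without fisetin 5 it was -0.10. It ran at 168, 240 and 364 CPM with fisetin and at 236, 287 and 339 CPM with the control diet, so the fisetin libraries spanned the whole control range. The LC3 genes, whose proteins are the usual autophagosome markers, had estimates no larger than their errors, at -0.13 ± 0.13 for Map1lc3a and -0.01 ± 0.04 for Map1lc3b. Map1lc3a spread from 32.7 to 61.7 CPM with fisetin and from 45.8 to 60.6 CPM with the control diet, while Map1lc3b stayed within 139 to 150 CPM and 143 to 155 CPM. Map1lc3b was thus the steadiest member over the 12 libraries, its highest 1.11 times its lowest.

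Wipi2, a phosphoinositide-binding protein that brings the conjugation machinery to the forming autophagosome, was at 97.8, 113 and 134 CPM with fisetin and at 111, 122 and 138 CPM with the control diet. The groups overlapped over most of their range, and the difference was -0.13 ± 0.08 (adjusted p = 0.455, edgeR). Its relative Wipi1, widely cited as a TFEB target, differed by -0.06 ± 0.04, with all 6 fisetin libraries below the control mean. Sqstm1, which codes for the cargo receptor p62, was at 456, 515 and 624 CPM with fisetin and at 512, 560 and 607 CPM with the control diet. Fisetin 6 was its highest library and fisetin 1, 2 and 5 its lowest, and the estimate was -0.11 ± 0.08 (adjusted p = 0.493, edgeR). The initiation genes Ulk1, a kinase that mTORC1 inhibits, and Becn1, a subunit of the lipid kinase complex, were at -0.02 ± 0.05 and -0.06 ± 0.06. Atg5 (0.01) and Atg7 (0.02), which serve the ATG8 coupling reaction, and Bnip3, a receptor for mitochondria that hypoxia induces (0.01), had estimates near 0.

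**Figure D4:**
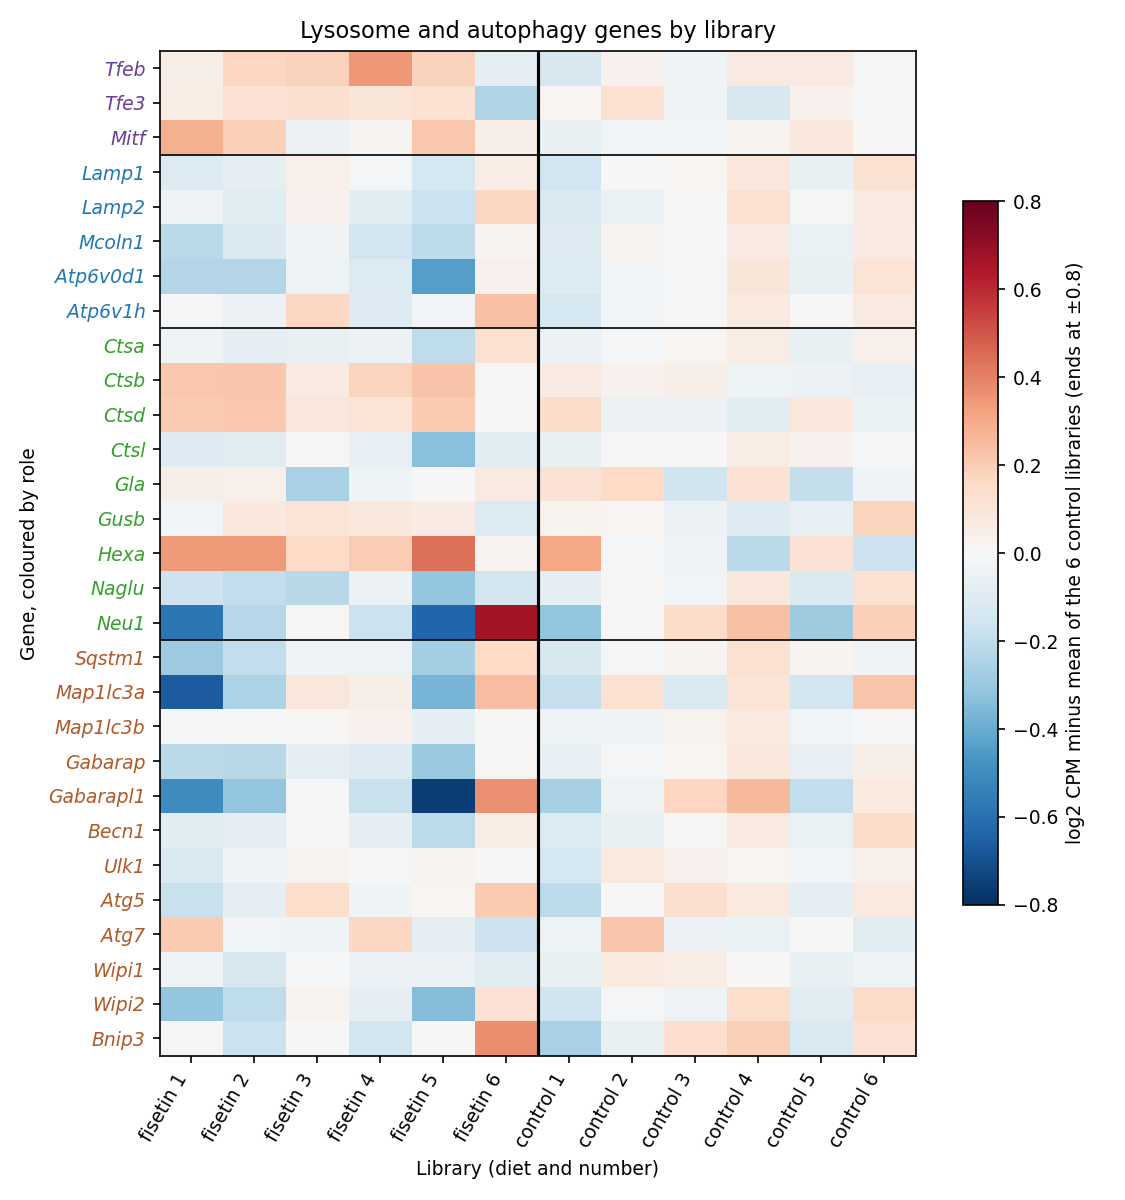
Each of the 29 tested genes (rows, coloured by role: purple TFEB family, blue membrane and acidification, green hydrolases, brown autophagy machinery) in each of the 12 libraries (columns, fisetin left of the line, control right), as log2 CPM minus the mean of the 6 control libraries, with the colour scale ending at ±0.8. Fisetin 6 is red where fisetin 5 and fisetin 1 are blue in Neu1, Gabarapl1 and Map1lc3a, and the 2 extremes are Neu1 in fisetin 6 (388 CPM) and Gabarapl1 in fisetin 5 (168 CPM).

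Several members spread widely over the 12 libraries. Between their highest and lowest library, 5 of the 29 members differed by 1.5 times or more: Neu1 (2.46 times), Gabarapl1 (2.17), Map1lc3a (1.89), Hexa (1.58) and Bnip3 (1.55). Fisetin 6 was the highest of all 12 libraries in 9 members (31.0%), against 13.7% of all genes tested. Fisetin 5 was the lowest in 11 members (37.9%), against 18.4% of all genes. Control libraries did so too: control 1 was the lowest in 7 members (24.1%), against 7.7% of all genes. Control 6 was the highest in 6 (20.7%), against 10.1%. Among the fisetin libraries, fisetin 5 and fisetin 6 also stood at the ends of the marker sums. Fisetin 6 had 15740 CPM of proximal tubule markers and 530 CPM of macrophage markers, and fisetin 5 had 6235 and 1362 CPM. All 10 proximal tubule markers had negative estimates (2 at an unadjusted p under 0.05), all 10 macrophage markers positive ones (1 at that level), and none of either list was at 0 in any library. Markers of T and NK cells (6 of 6, 3 at that level, median 0.68) and of B and plasma cells (6 of 6, 0 at that level, median 1.24) had positive estimates too. Of all genes tested, 8.23% were higher and 6.34% lower at that level, and 0 of these markers passed the adjusted test. T and NK cell markers summed to 19.4, 41.6 and 66.2 CPM with fisetin and 17.4, 23.6 and 45.5 CPM with the control diet, and B and plasma cell markers to 21.8, 231 and 898 CPM with fisetin and 12.1, 66.4 and 510 CPM with the control diet. Neu1 and Gabarapl1 ran high where the tubule sum was high, and so did Gabarap and Atp6v0d1. In control 4, with 16390 CPM of tubule markers, Gabarap was at 205.9 CPM and Atp6v0d1 at 107.6 CPM. In fisetin 5, with 6235 CPM, they were at 157.8 and 74.35 CPM. Naglu followed the tubule sum less closely, at 38.54 CPM in fisetin 6, below its control median of 42.44 CPM. Hexa and Ctsb mostly ran high where the macrophage sum was high, control 1 included (1052 CPM, the highest control sum). In fisetin 6, with the lowest macrophage sum (530 CPM), Hexa (80.6 CPM) and Ctsb (620 CPM) were at their lowest with fisetin, above their control medians. Control 5 had 839 CPM of macrophage markers, with Ctsb at 595 CPM, below the control median of 615 CPM. Hexa in control 5 was at 86.05 CPM, above its control median of 78.16 CPM. The part of any of these cell types in the diet differences was not tested.

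**Figure D5:**
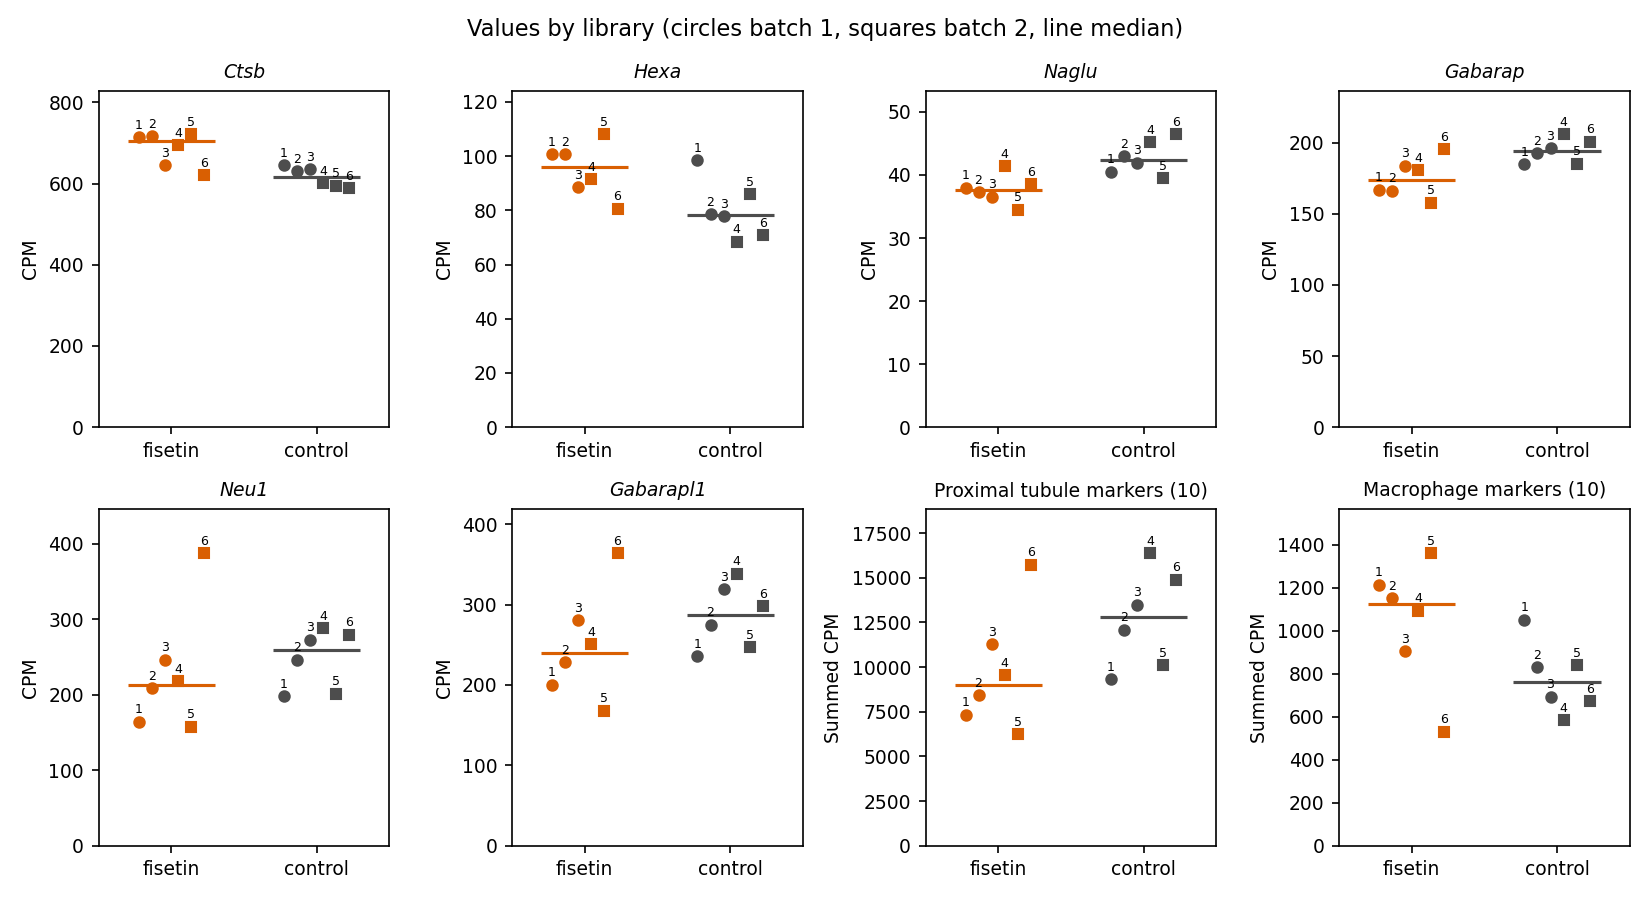
CPM of 6 genes and summed CPM of 2 marker lists in each library, fisetin (orange) left of control (grey), circles for batch 1 and squares for batch 2, with the library number above each point and a line at the median. Fisetin 6 departs from the other fisetin libraries in Neu1 (388 CPM), Gabarapl1 (364 CPM) and both marker sums (15740 and 530 CPM).

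Leaving out fisetin 6 moved the estimates of most members away from 0 and still gave no call. Fisetin 6 was singled out after its values were seen, so the estimates without it are not separate support for a diet difference. Without it, 0 of 29 members and 70 of 18045 genes (0.388%) passed the edgeR test. At an unadjusted p under 0.05 there were then 11 of 29 members, against 4636 of 18045 genes (25.7%). The 5 higher ones (13.3% of all genes) were Tfeb, Mitf, Ctsb, Ctsd and Hexa. The 6 lower ones (12.4% of all genes) were Mcoln1, Atp6v0d1, Naglu, Sqstm1, Gabarap and Gabarapl1. The estimate for Tfeb was then 0.20 ± 0.06 (adjusted p = 0.0855, edgeR), for Gabarapl1 -0.34 ± 0.14 (adjusted p = 0.158) and for Neu1 -0.32 ± 0.15 (adjusted p = 0.198). The limma-voom fit with quality weights used all 12 libraries and gives less weight to libraries that fit poorly. With it, 8 of 29 members passed an adjusted p under 0.05, where 2492 of 17890 genes did (13.9%). They were Tfeb, Ctsb, Ctsd and Hexa, higher with fisetin, and Mcoln1, Atp6v0d1, Naglu and Gabarap, lower with it, at adjusted p-values of 0.0232 (Hexa) to 0.0443 (Mcoln1).

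No member differed between batches in its diet effect beyond the error. The test of the interaction of diet with batch called 0 of 29 members and 0 of 17890 genes (0%), and 0 members had an unadjusted p under 0.05, against 376 genes (2.10%; smallest member adjusted p = 0.9999, edgeR). Within batch 1 and batch 2 alone the log2 fold change was 0.18 and 0.13 for Tfeb, 0.19 and 0.32 for Hexa, and 0.12 and 0.20 for Ctsb. For Naglu it was -0.17 and -0.19, and for Atp6v0d1 -0.12 and -0.20. In all, 20 members had the same sign in both batches and 9 had opposite signs, among them Lamp1, Lamp2 and Becn1, whose estimates were close to 0. Between batches themselves, 0 of 29 members and 0 of 17890 genes (0%) passed the edgeR test, and 0 members had an unadjusted p under 0.05, against 604 genes (3.38%).

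The wider pathway was read from 154 other genes in 9 lists, all of which passed the count filter. With edgeR 0 of the 154 passed, and 29 (18.8%) reached an unadjusted p under 0.05, of which 14 were higher and 15 lower with fisetin, where 14.6% of all genes reached it, 8.23% higher and 6.34% lower. Of the 154 estimates, 60 were above 0 and 94 below, with a median of -0.02. These splits, and those of each list below, use the TMM factors. Scaling by total count raised the median of all genes by 0.04 on the log2 scale. The lists were not recounted with that scaling, and estimates this close to 0 could change sign. DESeq2 called 2 of the 154, where it called 0.954% of all genes, both in the list of lysosomal membrane and sorting genes. Npc1, the cholesterol exporter of the lysosome, was at 50.6, 63.4 and 67.9 CPM with fisetin and at 49.3, 50.2 and 54.2 CPM with the control diet (DESeq2 adjusted p = 0.0431, edgeR adjusted p = 0.252). Tpcn1, a cation channel of endosomes and lysosomes, was at 160.1, 166.5 and 174.2 CPM with fisetin and at 174.4, 180.7 and 189.9 CPM with the control diet, without overlap, as in 0.894% of all genes (DESeq2 adjusted p = 0.0499, edgeR adjusted p = 0.29). Tpcn1 was named after its values were seen.

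By list, 18 of 43 other hydrolases and activators had positive estimates and 25 negative ones, with 5 higher and 6 lower at an unadjusted p under 0.05. The smallest p-values were those of Asah1, the acid ceramidase (0.18 ± 0.06), and Ctso, cathepsin O (0.17 ± 0.06), each at an edgeR adjusted p of 0.281. Of 26 membrane and sorting genes, 12 were positive and 14 negative. Besides Npc1 (0.27 ± 0.07), Mcoln3, a channel related to MCOLN1, had the smallest p of that list, at -0.50 ± 0.17 (adjusted p = 0.286, edgeR).

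The 15 other pump subunits split 4 to 11. Tcirg1, the a3 subunit known from osteoclasts and macrophages, was estimated at 0.30 ± 0.10 and Atp6v0b, a proteolipid subunit, at -0.16 ± 0.06 (adjusted p = 0.29 and 0.299, edgeR). The 5 pump subunits of intercalated cells had 1 positive and 4 negative estimates, none at an unadjusted p under 0.05. Atp6v0d2 (0.15 ± 0.07) and Atp6v1b1 (-0.14 ± 0.13) led that list.

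Other initiation genes of autophagy were at 3 positive and 15 negative estimates of 18, with 0 at an unadjusted p under 0.05 (edgeR). Their median was -0.02, smaller in size than the 0.04 shift of total count scaling. Atg101, a partner of the ULK1 complex (-0.19 ± 0.09), and Atg9a, the widely expressed relative of Atg9b (-0.16 ± 0.08), had the smallest p-values. The 10 other genes of ATG8 coupling split evenly, 5 and 5, led by Atg10 (-0.23 ± 0.09) and Atg12 (0.11 ± 0.05). Of 14 other autophagy receptors, 5 were positive and 9 negative, with Tex264, a receptor for the endoplasmic reticulum (-0.28 ± 0.10), and Optn, which codes for optineurin (0.16 ± 0.07), first. The 15 genes for fusion of autophagosomes with lysosomes lay near 0, at 7 positive and 8 negative, led by Vamp8 (-0.16 ± 0.08) and Vps11 (0.08 ± 0.04).

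The list of TFEB regulators and relatives held 5 positive and 3 negative estimates of 8. Rragd, a Rag GTPase that recruits mTORC1 to the lysosome and is itself reported as a TFEB family target, was estimated at 0.16 ± 0.05 (adjusted p = 0.286, edgeR). Gpnmb, a glycoprotein of melanosomes and of lipid-laden macrophages, had the largest estimate of all 154, 1.12 ± 0.42 (adjusted p = 0.303, edgeR). It ran at 14.4, 41.6 and 62.0 CPM with fisetin and at 8.51, 16.6 and 44.5 CPM with the control diet. The groups overlapped, and the macrophage marker sums given above were likewise higher in the fisetin median. The T and NK cell and B and plasma cell sums were higher in the fisetin median as well, and their part in it was not tested.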

How the data were processed

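Per the labels' protocols, RNA of integrity number above 8 went into the KAPA mRNA HyperPrep kit. Tools named without versions in the submitters' processing notes are STAR, fastp, DESeq2 and featureCounts, and the builds named are mm10 and GRCm38. How reads were assigned (annotation release, strand, settings) is not given in the sources used here. Per the file headers, each library has estimated counts, FPKM and TPM deposited by the authors. The deposited counts were not scaled for depth, and they were rounded here because 13.91% of the values above 0 were not whole (tolerance 1e-06). The authors scaled the deposited TPM to a fixed total and the deposited FPKM to transcript length and depth. The 7SL RNA rows together took 40.34% to 53.11% of each library's TPM. Levels between genes were read as FPKM. All 36 value columns were matched to samples by name.

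Titles gave the diet and the batch field of the labels gave the batch. Libraries were compared in 66 pairs over 16473 genes, and their mean squared difference was 6.996 to 104.8 times counting noise, so none looked like a copy. In R 4.3.3, edgeR 4.0.16 tested genes passing filterByExpr (minimum count 10), with TMM factors and glmQLFit (robust) on batch and diet, two-sided, with Benjamini-Hochberg adjustment over 17890 genes and a threshold of 0.05. The steps were tested on simulated data. CPM divide the counts by the TMM-adjusted library size. Standard errors were derived from each gene's F statistic and fold change. Alternatives were DESeq2 1.42.0 (Wald test; adjusted p given as NA was kept so), limma 3.58.1 (voom with quality weights, and log2(TPM + 1) and log2(TPM + 0.1)), other scalings and filters, each batch alone, and leaving out each library. Positions are from GENCODE M21 on GRCm38 and promoters from RefSeq on GRCm38.p6.

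The members, gene lists and marker lists were chosen with earlier results of these data known. Lists were described by counts and medians and not tested. All 30 members are named. Values by library range are given for the TFEB family and, in each other group, for members with an unadjusted p under 0.05 and the 2 with the smallest p, as are the 2 genes with the smallest p of each wider list with their fold changes. Ranges for Ctsd, Neu1, Sqstm1, Map1lc3a, Map1lc3b, Gabarapl1, Npc1, Tpcn1 and Gpnmb were added after their values were seen.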

Additional observations from a re-analysis of the deposited data

Results flagged for a closer look

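In 60 groups of 6 libraries (30 genes in 2 diets), Dixon's test at the 95% level marked a library whose gap to the nearest of the others took most of the range of its diet, which chance alone does in about 1 of 20 groups. It marked 5. Tfe3 in fisetin 6 was at 35.65 CPM, below the other fisetin libraries, the nearest of which was at 43.99 CPM. Bnip3 in fisetin 6 was at 96.09 CPM, above the others, the nearest of which was at 74.34 CPM. Ctsl in fisetin 5 was at 347.7 CPM, below the next at 408.6 CPM. Gla in fisetin 3 was at 5.422 CPM, below the next at 6.335 CPM. Atg7 in control 2 was at 30.09 CPM, above the next control at 25.86 CPM. None of these 5 genes passed the edgeR test between diets, and without fisetin 6 the log2 fold change was 0.10 for Tfe3 and -0.07 for Bnip3.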

How the results depend on the processing

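The count of all genes past the edgeR threshold, 0 with all 12 libraries, was 154 with DESeq2, 2492 with limma-voom quality weights and 1 with batch 1 alone. It ran from 0 to 70 over the 12 fits that left out a library, with 70 without fisetin 6 and 1 without fisetin 4. Members past the threshold were 0 in the edgeR fit and in 24 of 25 alternatives, the exception being limma-voom quality weights with 8. Called members of the interaction and of the batch term were 0 in every alternative run. Members at an unadjusted p under 0.05 (2 higher, 3 lower) numbered 4 higher and 4 lower without fisetin 3 (18.6% of all genes at that level), without control 5 (16.4%) and without the batch term (14.9%), and 2 and 1 without control 4 (9.43%), so the share of all genes moved too. On the log2(TPM + 1) scale they were 2 and 0 (7.26%), with -0.04 for Naglu and Gabarap, -0.02 for Mcoln1 and 0.31 for Ctsb. Batch 1 by itself gave 0 higher and 1 lower (7.70%), and batch 2 by itself 0 of both (5.22%). The cause was not tested. Hexa, Ctsb and Naglu kept an unadjusted p under 0.05 (edgeR) in all 12 fits that left out a library and Gabarap in 11. These genes were picked by their p in the full fit, and each such fit reuses most of its libraries. The count is therefore not separate support, and the same count over all genes was not made. Of the 29 members, 17 kept their sign in all 25 alternatives and 12 did not. Total count scaling moved the median of all genes by 0.04 on the log2 scale, and the log2(TPM + 1) fit moved it by 0.05. No paired analysis was possible because the library numbers were given in accession order and pair nothing across diets. The standard errors (median 0.07 on the log2 scale) set the size of difference that 6 libraries per diet could show.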
